A study of Mus musculus with 12 samples.

Results

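The response of bone marrow macrophages (MΦs) to co-culture with myeloma cells was compared between wt and BMI1-KO cells, gene by gene, to show which responses both genotypes shared and which differed in size. All 12 of 12 RNA-seq libraries of the study were used, as 3 libraries in each of 4 groups: MΦs and myeloma-associated MΦs (MM-MΦs) from wt mice, and the same pair of cultures from BMI1-KO mice. The response was the level in MM-MΦs minus the level in MΦs of the same genotype, and the genotype difference was the BMI1-KO response minus the wt response. Marrow came from C57BL/6 mice, BMI1fl/fl for wt and BMI1fl/fl Mx1-Cre for BMI1-KO. Both genotypes had received 5 doses of poly I:C at 15 mg/kg from 6 to 8 weeks of age, and marrow was taken 4 weeks after the last dose. Adherent marrow cells were grown for 7 days in 5 ng/mL M-CSF, and MM-MΦs were then kept for 48 hours with 5TGM1, a mouse myeloma cell line. CD11b+ F4/80+ cells were sorted from both cultures before total RNA was sequenced. Mx1-Cre is driven by an interferon-responsive promoter that is not restricted to macrophages, and the wt mice carried no Cre, so loss of Bmi1 exons 4 to 8 and carriage of Cre cannot be told apart. The sources used here do not say whether libraries numbered 1 to 3 came from separate mice. The p-values measure how far the difference between MM-MΦs and MΦs varied from number to number, and this spread may be technical.

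Type I interferons bind a receptor on macrophages and, through Jak kinases and transcription factors such as the Irf family, switch on a large set of antiviral genes. These include the Ifit proteins, which bind foreign RNA, the Mx GTPases, the Oas enzymes that sense double-stranded RNA, and the Ifi200 family of DNA sensors. BMI1 is a subunit of Polycomb repressive complex 1 and is best known for silencing the Cdkn2a locus. Clustered histone genes, by contrast, supply the histones that package newly made DNA and are transcribed mainly in S phase.

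Libraries held 9662279 to 11142768 counts over genes, and 14197 of 55573 genes were tested. Macrophage identity genes were present throughout: Adgre1, which encodes F4/80, had 889 to 1394 CPM (counts scaled to the library size after TMM adjustment) and Itgam, which encodes CD11b, had 122 to 270 CPM over the 12 libraries. The wt number 3 libraries stood apart: the summed level of mitotic genes was 5636 CPM in the MΦ library and 5628 CPM in the MM-MΦ library, against 529.7 to 1353 CPM in the other wt libraries and 290.0 to 1850 CPM in the BMI1-KO libraries. Summed levels of gene lists, here and below, were scaled to library totals without the TMM adjustment. MΦ and MM-MΦ libraries with the same number deviated together, so each response was taken within a number. The Bmi1 count was 0 in each of the 6 BMI1-KO libraries, while wt libraries had 25.5 to 32.4 CPM. The total behind the deposited FPKM values exceeded the summed counts by 512 to 734 in each BMI1-KO library and differed from them by at most 2 in each wt library, so the 0 may not be a measured value. Bmi1 was not used to check the labels and no genotype difference is given for it.

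Most genes that co-culture raised in wt it also raised in BMI1-KO, and many of them were interferon-induced antiviral genes. BMI1-KO had further calls, most of them with a response of the same sign in wt. At an adjusted p under 0.05 (edgeR quasi-likelihood test, Benjamini-Hochberg over all genes tested), 150 genes (1.06%) rose and 6 (0.0423%) fell in wt, and 263 (1.85%) rose and 45 (0.317%) fell in BMI1-KO. Both genotypes together gave 132 genes (0.93%) that rose in each and 4 (0.0282%) that fell in each, with 0 called in opposite directions. These 136 genes were 87.2% of the wt calls and 44.2% of the BMI1-KO calls. The interaction, which tests the genotype difference itself, passed the threshold for 1 gene whose response was higher in BMI1-KO (0.00704%), the linker histone gene Hist1h1d, and for 0 genes whose response was lower (0%). At an unadjusted p under 0.05 there were 471 genes (3.32%), 237 of them with the higher and 234 with the lower response in BMI1-KO. DESeq2 called 3 genes, all with the higher response in BMI1-KO. With no filter on low counts 23 genes passed, among them 14 of the named genes beside Hist1h1d: Egr1, Hist1h2be, Hist1h3c, Ighg2b, Igkc, Igkv10-96, Mamdc2, Rpl38, Rpl38-ps2, Rps19, Rps19-ps6, Tnfaip2, mt-Rnr1 and mt-Rnr2. With no block for the number, the interaction passed for 0 genes and the count in both genotypes was 12 in place of 136. The count in both was 88 without the wt number 3 libraries, and also 88 without number 1 or number 3 of both genotypes. In bulk samples, fewer cells of a type and less RNA per cell cannot be told apart.

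**Figure D1:**
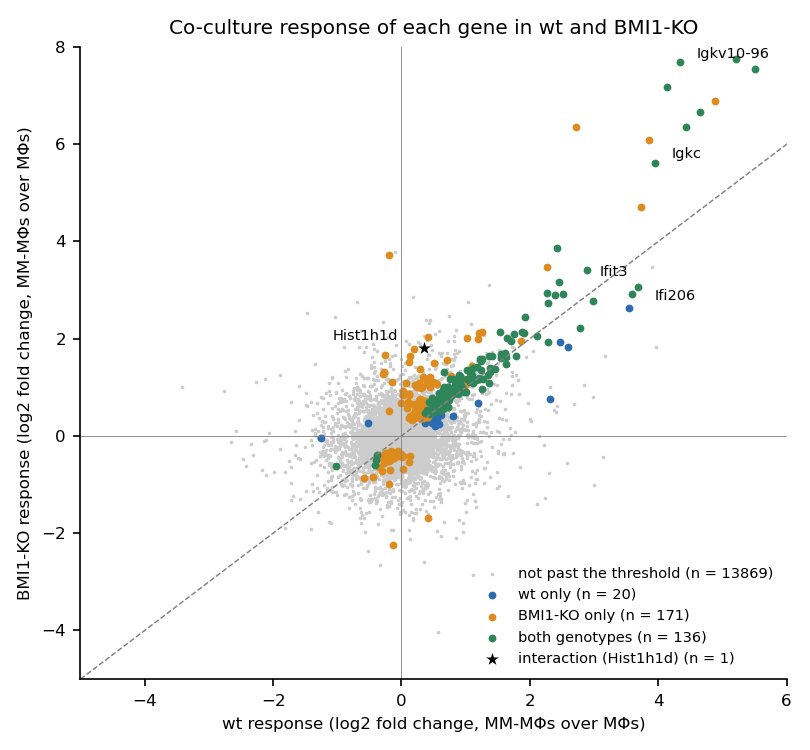
Each point is one of the 14197 genes tested, with its log2 fold change of MM-MΦs over MΦs in wt on the x axis and in BMI1-KO on the y axis, coloured by which test passed, and the dashed line marks equal responses (4 genes lie outside the axes). The 132 genes that rose in both genotypes lie in the upper right, most of them above the dashed line, and the 4 that fell in both lie in the lower left. Hist1h1d (star) lies at 0.35 in wt and at 1.81 in BMI1-KO.

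The point estimate of a shared response was more often the larger in BMI1-KO, by an amount that varied with the library. Over the 136 genes called in both genotypes the median log2 fold change was 0.91 in wt and 1.09 in BMI1-KO, and the median genotype difference was 0.12, against −0.0077 over all genes tested. The response was larger in size in BMI1-KO for 102 of the 136 and in wt for 34. Over all 14197 genes tested it was larger in BMI1-KO for 7882 and in wt for 6315. The median absolute log2 fold change over all genes was 0.149 in BMI1-KO and 0.126 in wt. By number, the median difference between MM-MΦs and MΦs over the 136 genes was 1.02, 0.68 and 1.07 log2 CPM in wt and 0.98, 1.07 and 1.19 in BMI1-KO. The genotypes overlapped, with wt number 2 the lowest of the 6, and without the wt number 2 libraries the median genotype difference was 0.046. For 110 of the 136 genes the 95% interval of the genotype difference lay within 1 log2 unit of 0 on either side, as it did for 64.1% of all genes tested. A missed threshold does not show equal responses, and for the rest of the 136 the interval reached past 1 log2 unit. The 3 differences of BMI1-KO all lay above the 3 of wt for 7 of the 136 genes and all below for 2. Over all genes tested this held for 530 genes (3.73%) and 669 genes (4.71%). Comparing 3 numbers with 3, an exact permutation test cannot give a two-sided p below 0.1.

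The proximal promoters of the shared genes are shown first because many of them carry the interferon-stimulated response element (ISRE), a DNA motif bound in the interferon response. RefSeq windows of GRCm38.p6 that run from 250 bases before to 50 bases after the annotated start were searched on both strands for GAAANNGAAA, the core of the ISRE. Of the 132 genes that rose in both genotypes 94 were matched to a window by symbol or older symbol, and 34 of these (36.2%) held the motif, against 3.99% of all genes with a window and 3.88% of the tested genes. Among the 131 genes that rose with a call in BMI1-KO alone, 104 were matched and 19 (18.3%) held it. The windows below belong to the Ifi200 sensors Ifi206 and Ifi208, to Ifit3 and to Oas3, all genes that rose in both genotypes. Capitals mark the matches, which begin 40 bases before the start in Ifi206 (chr1:173491269-173491568, minus strand), 58 in Ifi208 (chr1:173673415-173673714, plus strand), 156 and 122 in Ifit3 (chr19:34583279-34583578, plus strand) and 75 in Oas3 (chr5:120777610-120777909, minus strand).
Ifi206: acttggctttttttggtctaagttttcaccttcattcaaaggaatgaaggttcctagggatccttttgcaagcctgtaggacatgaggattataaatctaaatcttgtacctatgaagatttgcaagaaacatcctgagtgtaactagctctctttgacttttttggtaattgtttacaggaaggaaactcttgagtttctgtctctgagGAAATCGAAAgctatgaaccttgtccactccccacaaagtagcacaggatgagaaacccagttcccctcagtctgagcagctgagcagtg
Ifi208: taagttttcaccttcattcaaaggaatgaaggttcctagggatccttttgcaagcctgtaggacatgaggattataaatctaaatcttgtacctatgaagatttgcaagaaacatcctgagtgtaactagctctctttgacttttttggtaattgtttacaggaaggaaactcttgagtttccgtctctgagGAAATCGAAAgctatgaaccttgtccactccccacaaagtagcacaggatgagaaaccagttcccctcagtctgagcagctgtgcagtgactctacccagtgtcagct
Ifit3: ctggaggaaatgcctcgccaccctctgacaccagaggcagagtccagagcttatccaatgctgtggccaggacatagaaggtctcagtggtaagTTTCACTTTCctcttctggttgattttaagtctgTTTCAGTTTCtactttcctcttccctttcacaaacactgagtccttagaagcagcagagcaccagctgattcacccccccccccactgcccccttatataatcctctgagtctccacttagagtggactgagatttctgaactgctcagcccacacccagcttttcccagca
Oas3: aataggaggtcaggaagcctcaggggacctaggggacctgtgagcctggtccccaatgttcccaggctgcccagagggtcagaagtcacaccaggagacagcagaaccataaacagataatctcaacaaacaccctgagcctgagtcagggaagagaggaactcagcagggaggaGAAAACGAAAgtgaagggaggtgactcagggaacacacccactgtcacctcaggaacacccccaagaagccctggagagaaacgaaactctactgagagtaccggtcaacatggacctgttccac
The windows of Ifit2, another gene that rose in both genotypes, held no match, which says only that these letters are not in them.

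Of the 132 genes that rose in both genotypes, 57 (43.2%) belonged to 4 lists of interferon-induced genes, which together made up 94 (0.662%) of the genes tested. Of the 57, 40 had the larger response in BMI1-KO, beside 7882 of all 14197 genes tested. The median genotype difference of the 57 was 0.13, and 43 intervals lay within 1 log2 unit of 0. None of the 94 passed the interaction test, while 10 had an unadjusted p under 0.05, beside 3.32% of all genes tested.

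Antiviral effectors, the largest of these lists, rose in both genotypes. Of 41 tested, 29 rose in wt and 36 in BMI1-KO, all 29 of the first among the second, with median log2 fold changes of 1.26 and 1.21 and a median genotype difference of 0.19. The mean difference over the list was 1.34, 0.99 and 1.32 log2 CPM for wt numbers 1 to 3 and 1.21, 1.51 and 1.70 for BMI1-KO. BMI1-KO numbers 2 and 3 lay above all 3 wt values, and BMI1-KO number 1 lay among them. Ifit2, which binds RNA and restrains translation, had 10.2, 10.5 and 13.7 CPM in wt MΦs, 70.2, 57.4 and 61.5 in wt MM-MΦs, 13.6, 11.3 and 7.08 in BMI1-KO MΦs and 95.3, 126 and 65.6 in BMI1-KO MM-MΦs. Its levels in MΦs overlapped between genotypes, while in MM-MΦs the lowest BMI1-KO library lay below the highest wt library. The log2 fold change was 2.45 (SE 0.14) in wt and 3.16 (SE 0.14) in BMI1-KO, a genotype difference of 0.70 (95% interval 0.28 to 1.13, unadjusted p = 0.00249) that did not pass adjustment over all genes, although its 3 differences in BMI1-KO lay above the 3 in wt. Ifit3 had 3.56, 5.31 and 4.52 CPM in wt MΦs, 29.8, 30.9 and 38.7 in wt MM-MΦs, 7.29, 7.91 and 3.09 in BMI1-KO MΦs and 44.5, 91.5 and 57.8 in BMI1-KO MM-MΦs. All MM-MΦ libraries lay above all MΦ libraries in each genotype. Its response was 2.89 in wt and 3.41 in BMI1-KO, with a genotype difference of 0.52 (−0.13 to 1.16). Ifit3b, a near-identical neighbour of Ifit3 whose reads may be split between the genes, had responses of 2.42 and 3.86 with a wider interval for their difference (0.043 to 2.84). Mx1, the GTPase whose promoter drives Cre in the BMI1-KO mice, had 6.50, 5.92 and 6.06 CPM in wt MΦs, 28.7, 24.5 and 36.8 in wt MM-MΦs, 7.40, 7.34 and 4.27 in BMI1-KO MΦs and 31.7, 70.0 and 47.1 in BMI1-KO MM-MΦs. The wt MM-MΦ libraries lay below BMI1-KO numbers 2 and 3, and the response was 2.27 (SE 0.21) in wt and 2.94 (SE 0.21) in BMI1-KO, a difference of 0.67 (0.051 to 1.28, unadjusted p = 0.0352). Isg20, an antiviral exonuclease, was called in BMI1-KO (log2 fold change 1.78, adjusted p = 0.0294) and had 0.19 in wt at 1.11 to 2.96 CPM.

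The Oas family rose in both genotypes. Of 8 genes tested, 6 rose in wt and the same 6 in BMI1-KO, with a median genotype difference of 0.15, and 7 of 8 intervals lay within 1 log2 unit of 0. Oas3, which makes the 2-5A messenger that activates RNase L, had 86.2, 103 and 73.0 CPM in wt MΦs, 176, 218 and 219 in wt MM-MΦs, 114, 134 and 75.2 in BMI1-KO MΦs and 226, 341 and 256 in BMI1-KO MM-MΦs. In each genotype the MM-MΦ libraries lay above the MΦ libraries, and among MΦs BMI1-KO numbers 1 and 2 lay above all 3 wt libraries. Its response was 1.23 (SE 0.12) in wt and 1.36 (SE 0.12) in BMI1-KO, with a genotype difference of 0.13 (−0.23 to 0.48). Oasl2 gave 1.55 and 1.68, and Oasl1, which restrains Irf7 translation, gave 1.88 and 2.14.

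Transcription factors and nucleic acid sensors rose in similar numbers, 19 of 32 in wt and 19 in BMI1-KO, 17 of them shared. The genotype difference was above 0 for 22 of the 32 and below for 10, with a median of 0.13. An unadjusted interaction p under 0.05 was found for 5 of the 32, beside 3.32% of all genes tested, and 4 of the 5 had the higher response in BMI1-KO. Ifi206, Ifi208 and Ifi213 of the Ifi200 sensors had the largest responses of the list, and their point estimates were larger in wt. Ifi206 had 3.05, 2.76 and 1.37 CPM in wt MΦs, 32.3, 26.3 and 31.6 in wt MM-MΦs, 4.48, 9.82 and 1.36 in BMI1-KO MΦs and 35.3, 70.8 and 17.2 in BMI1-KO MM-MΦs. Every MM-MΦ library lay above every MΦ library of its genotype. The response was 3.68 (SE 0.22) in wt and 3.05 (SE 0.20) in BMI1-KO, and their difference of −0.62 had an interval of −1.28 to 0.033. Ifi208 gave 3.60 and 2.92, and Ifi213 gave 2.98 and 2.77. These tandem genes are alike in sequence, so reads may be split among them. Irf7, the factor that amplifies interferon output, gave 1.91 and 2.12 (difference 0.21, −0.32 to 0.74). Irf1 had no call in either genotype, with 0.28 in wt and −0.13 in BMI1-KO (difference −0.41, −0.75 to −0.069, unadjusted p = 0.0208). Irf9, a DNA-binding factor of the interferon response, was called in wt (0.56) and had 0.36 in BMI1-KO (adjusted p = 0.114), with a difference of −0.20 whose interval (−0.52 to 0.12) held 0.

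Guanylate-binding proteins and immunity-related GTPases, which attack vacuoles that hold microbes, rose for 8 of 15 genes in wt and 11 in BMI1-KO, 7 of them shared. Iigp1 gave 2.39 in wt and 2.90 in BMI1-KO with a difference of 0.52 (−0.71 to 1.74). Gbp6 was called in wt alone, at low levels of 0.171 to 1.32 CPM in wt MΦs and 1.35 to 4.19 CPM in wt MM-MΦs, with responses of 2.31 and 0.76 and a difference of −1.55 (−3.05 to −0.049). Interferon receptors and their kinases were not called, and the feedback inhibitor Socs3 was the 1 gene of 9 in that list that rose, by 0.97 in wt and 0.90 in BMI1-KO. The other 21 of the 30 genes listed, among them all interferon ligands, were too low to be tested.

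**Figure D2:**
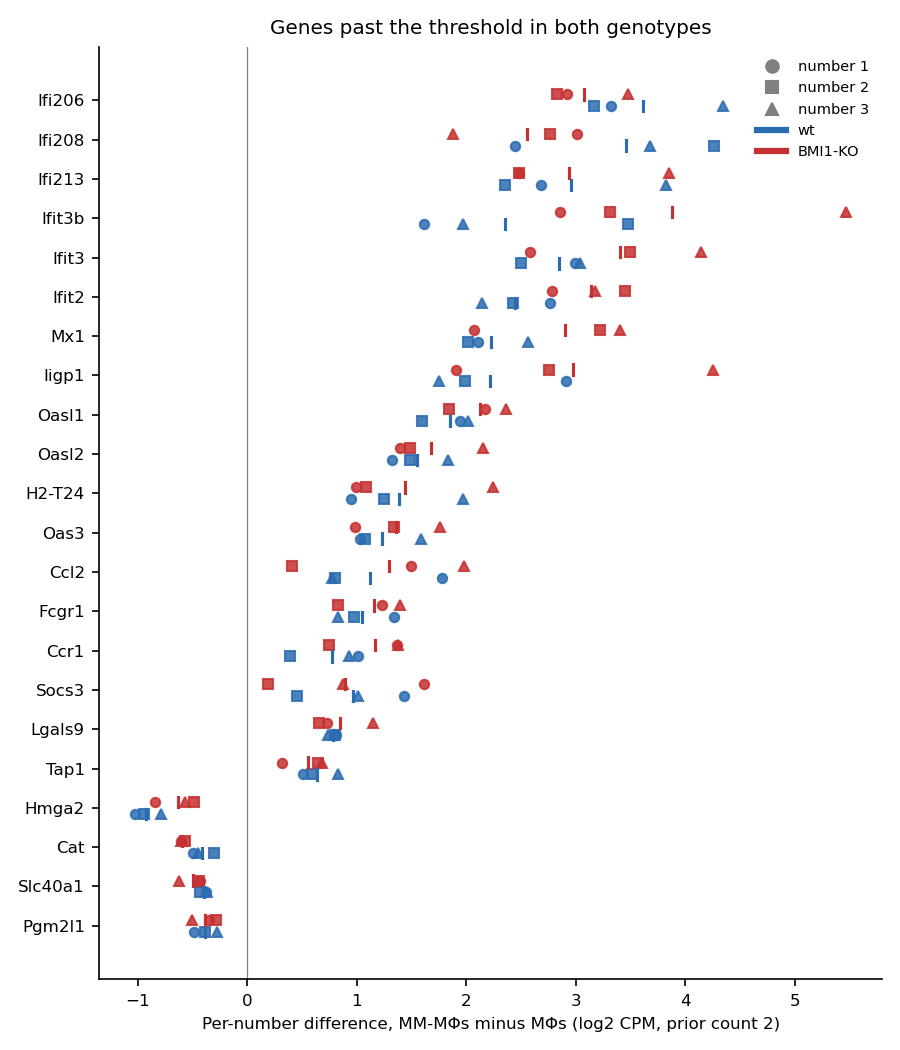
Points give the difference between MM-MΦs and MΦs of the same number in log2 CPM for 22 genes called in both genotypes, wt in blue and BMI1-KO in red, with the number as the symbol and the mean of 3 as a bar. The differences of Ifit2 in BMI1-KO lie to the right of all 3 in wt, those of Cat and Slc40a1 lie to the left, and the genotypes overlap for most other genes.

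Antigen presentation, chemokine and macrophage receptor genes gave fewer shared rises. In MHC class I presentation 3 of 24 genes rose in wt and 6 in BMI1-KO, with medians of 0.26 and 0.33. H2-T24 rose by 1.38 and 1.40, the peptide transporter gene Tap1 by 0.64 and 0.55, and Nlrc5, the class I transactivator, by 0.59 and 0.78. In MHC class II presentation Cd74, the invariant chain, was the 1 of 12 genes that rose in either genotype. It had 80.7, 91.1 and 18.5 CPM in wt MΦs, 135, 146 and 27.3 in wt MM-MΦs, 20.3, 6.96 and 5.44 in BMI1-KO MΦs and 38.6, 18.4 and 18.7 in BMI1-KO MM-MΦs. BMI1-KO levels lay below the wt levels of the same number in each culture, while the 3 differences in BMI1-KO, 0.92, 1.38 and 1.74 log2 CPM, lay above those in wt, 0.74, 0.68 and 0.55. The response was 0.67 (SE 0.12) in wt and 1.31 (SE 0.15) in BMI1-KO, a difference of 0.64 (0.25 to 1.03, unadjusted p = 0.00296) that did not pass adjustment.

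Chemokines and their receptors rose for 6 of 26 genes in wt and 9 in BMI1-KO, 4 of them shared. Ccl2, which attracts monocytes, rose by 1.12 in wt and 1.39 in BMI1-KO (interval of the difference −0.45 to 0.99). Ccl7, a related monocyte attractant, was called in BMI1-KO at 2.11 and had 1.21 in wt (adjusted p = 0.122), and the interval of the difference, −0.072 to 1.86, held 0. The chemokine receptor gene Ccr1 rose by 0.76 and 1.18 (difference 0.42, 0.0087 to 0.83). Fcgr1, the high-affinity IgG receptor, had 58.6, 41.6 and 71.9 CPM in wt MΦs, 149, 81.9 and 128 in wt MM-MΦs, 59.8, 79.6 and 61.6 in BMI1-KO MΦs and 141, 142 and 162 in BMI1-KO MM-MΦs. All MM-MΦ libraries lay above all MΦ libraries in both genotypes, with responses of 1.05 and 1.15 and a difference of 0.10 (−0.23 to 0.43). Lgals9, a galectin that binds T cell receptors of the Tim family, rose by 0.78 and 0.85. Inflammatory cytokines gave 0 calls of 23 in each genotype by edgeR, with 7 at an unadjusted p under 0.05 in wt and 5 in BMI1-KO, and Il1b had 0.66 in wt and 0.16 in BMI1-KO.

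Falls were fewer, and several were of antioxidant and iron genes. Of 23 tested, 2 fell in wt and 6 in BMI1-KO, beside 0.0423% and 0.317% of all genes tested. The median log2 fold changes were −0.18 and −0.16. The genotype difference was below 0 for 19 of the 23 and above for 4. Its median was −0.10, beside −0.0077 over all genes tested. The 3 differences of BMI1-KO lay below those of wt for 3 genes and above for 1, beside 4.71% and 3.73% of all genes tested. Catalase (Cat), which breaks down hydrogen peroxide, had 298, 307 and 265 CPM in wt MΦs, 211, 249 and 194 in wt MM-MΦs, 501, 556 and 360 in BMI1-KO MΦs and 329, 376 and 236 in BMI1-KO MM-MΦs. In each number of each genotype the MM-MΦ library was the lower, and the 3 differences in BMI1-KO (−0.60, −0.56 and −0.61 log2 CPM) lay below the 3 in wt (−0.50, −0.30 and −0.45). The response was −0.42 (SE 0.077) in wt and −0.59 (SE 0.076) in BMI1-KO, and the interval of the difference, −0.40 to 0.05, held 0. The iron exporter gene Slc40a1 gave −0.39 and −0.50. Gclm, a subunit of the enzyme that limits glutathione synthesis, was called in BMI1-KO (−0.64) and had −0.35 in wt (adjusted p = 0.0897), with a difference of −0.29 (−0.56 to −0.019, unadjusted p = 0.0372). Prdx1, a peroxidase, gave −0.44 in BMI1-KO and −0.18 in wt, and Srxn1, which repairs peroxidases, gave −0.45 and −0.34. The 2 other genes that fell in both genotypes were Hmga2, a chromatin protein gene (−1.01 and −0.62), and Pgm2l1 (−0.38 and −0.39).

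Genes called in a single genotype mostly moved the same way in the other. Of the 172 genes called in BMI1-KO alone, 131 rose and 41 fell, and 158 had the same sign in wt. Over all 14197 genes tested, 8335 had the same sign in both genotypes. The median size of the 172 was 0.59 in BMI1-KO and 0.30 in wt. The interaction had an unadjusted p under 0.05 for 58 of the 172, beside 3.32% of all genes tested, and passed adjustment for Hist1h1d alone. A response larger in the genotype of the call follows in part from the call itself. Of the 20 genes called in wt alone, 18 rose, 2 fell and 19 had the same sign in BMI1-KO. For 5 of the 20 the unadjusted interaction p was under 0.05, again beside 3.32% of all genes tested. One of the 18 was Cd5l, a macrophage survival factor (0.56 in wt, 0.44 in BMI1-KO), and another was Plk2, a p53 target (0.52 and 0.20). Egr1, an early growth response factor, was called in BMI1-KO. It had 300, 126 and 25.9 CPM in wt MΦs, 540, 162 and 21.7 in wt MM-MΦs, 185, 54.4 and 10.3 in BMI1-KO MΦs and 500, 87.9 and 23.5 in BMI1-KO MM-MΦs, so the numbers differed far more than the cultures, and the difference between responses was 0.72 (0.27 to 1.16, unadjusted p = 0.00295). The scavenger receptor gene Cd36 fell in BMI1-KO (−0.49, SE 0.078) and had −0.19 in wt (adjusted p = 0.619). Its 3 differences in BMI1-KO (−0.51, −0.42 and −0.52 log2 CPM) lay below the 3 in wt (−0.36, −0.08 and −0.12), and the genotype difference was −0.30 (−0.53 to −0.071, unadjusted p = 0.013). Mmp12, macrophage elastase, gave −0.43 in BMI1-KO and 0.0068 in wt (interval of the difference −0.77 to −0.11).

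**Figure D3:**
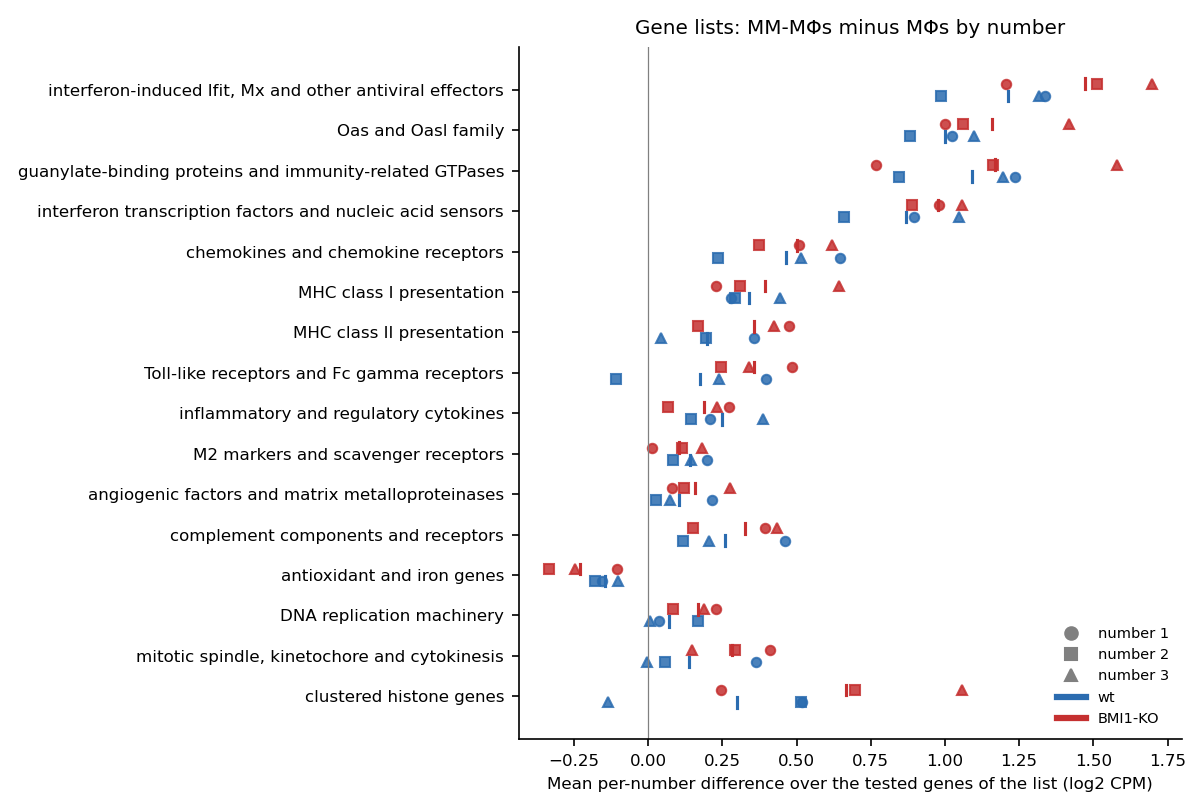
Points give, for 16 gene lists, the mean difference between MM-MΦs and MΦs of the same number over the tested genes of the list in log2 CPM, wt in blue and BMI1-KO in red, with the number as the symbol and the mean of 3 as a bar. Lists of interferon-induced genes lie between 0.66 and 1.70 in both genotypes, and the clustered histone genes spread from −0.14 in wt number 3 to 1.06 in BMI1-KO number 3.

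Hist1h1d, the gene for a linker histone H1 (H1f3 in RefSeq), was the 1 gene whose response differed between genotypes past the threshold. It had 61, 228 and 1818 counts in wt MΦs, 116, 304 and 1800 in wt MM-MΦs, 15, 55 and 155 in BMI1-KO MΦs and 43, 220 and 513 in BMI1-KO MM-MΦs, or 6.20, 23.3 and 155 CPM in wt MΦs, 11.6, 31.5 and 158 in wt MM-MΦs, 1.56, 5.24 and 14.1 in BMI1-KO MΦs and 4.57, 22.1 and 45.9 in BMI1-KO MM-MΦs. The wt number 3 libraries held by far the most, and BMI1-KO levels lay below the wt levels of the same number in each culture. Per number, the difference was 0.88, 0.43 and 0.025 log2 CPM in wt and 1.44, 2.03 and 1.69 in BMI1-KO, so that all 3 BMI1-KO differences lay above the wt ones. The fitted response was 0.35 (SE 0.14, adjusted p = 0.563) in wt and 1.81 (SE 0.17, adjusted p = 9.74e-07) in BMI1-KO, and the genotype difference was 1.46 (SE 0.23, 95% interval 0.99 to 1.93, adjusted p = 0.0393). DESeq2 gave 1.44 (adjusted p = 0.00179) and limma-voom 1.59 (adjusted p = 0.0242). The call was kept in 11 of 19 alternatives and lost in 8. It was lost without wt number 3 (1.19, adjusted p = 1), without BMI1-KO number 2 (1.33, adjusted p = 0.328) or number 3 (1.61, adjusted p = 0.157), and without number 2 (1.37, adjusted p = 0.433) or number 3 (1.27, adjusted p = 1) of both genotypes. It was also lost with no block for the number (1.67, adjusted p = 1), with limma on the 6 per-number differences (1.28, adjusted p = 0.923), and with a minimum log2 fold change of 1 (adjusted p = 1). The promoter of Hist1h1d (chr13:23554782-23555081, plus strand of GRCm38.p6) is shown with the H1 box, AAACACA, in capitals. The box is the motif shared by linker histone promoters and begins 122 bases before the start.
Hist1h1d: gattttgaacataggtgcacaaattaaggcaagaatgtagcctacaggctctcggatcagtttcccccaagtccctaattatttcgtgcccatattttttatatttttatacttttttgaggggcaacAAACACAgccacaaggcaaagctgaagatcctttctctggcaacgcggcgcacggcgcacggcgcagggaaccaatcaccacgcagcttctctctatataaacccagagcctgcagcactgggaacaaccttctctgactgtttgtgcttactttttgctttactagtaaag
The H1 box was found in 4 of 5 windows of the clustered H1 genes tested and in 8.22% of all genes with a window, and GAAANNGAAA in 0 of those 5. The gene model counted as Hist1h1d spans chr13:23553262-23560686 with 7425 exonic bases, so the promoter window shown lies inside it. The other H1 genes tested have 741 to 1930 exonic bases. Counts of Hist1h1d may thus include reads from outside the histone transcript, which was not tested.

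Most other clustered histone genes had point differences on the same side, in a list drawn up after these values were seen. Of 60 tested, 0 were called in wt (7 at an unadjusted p under 0.05) and 21 rose in BMI1-KO, beside 1.85% of all genes tested. The median log2 fold changes were 0.20 in wt and 0.85 in BMI1-KO. The genotype difference was above 0 for 54 of 60 genes with a median of 0.66, beside −0.0077 over all genes tested, and 26 had an unadjusted p under 0.05, beside 3.32% of all genes tested. In 11 of 60 genes the 3 differences of BMI1-KO lay above those of wt, beside 3.73% of all genes tested, and in 0 they lay below, beside 4.71%. By number the mean difference was 0.52, 0.51 and −0.14 log2 CPM in wt and 0.24, 0.70 and 1.06 in BMI1-KO. The genotypes overlapped, since BMI1-KO number 1 lay below wt numbers 1 and 2. The median genotype difference was 0.31 without wt number 3 and 0.45 without BMI1-KO number 3. Hist1h2be, a core histone H2B gene, had 7.01, 11.9 and 54.1 CPM in wt MΦs, 4.99, 7.86 and 55.5 in wt MM-MΦs, 1.88, 3.43 and 7.90 in BMI1-KO MΦs and 2.98, 10.7 and 18.7 in BMI1-KO MM-MΦs and a difference of 1.56 (0.96 to 2.15, adjusted p = 0.121), which DESeq2 called (adjusted p = 0.0384). The H3 gene Hist1h3c gave 1.92 (1.04 to 2.80, adjusted p = 0.695), which was 2.46 (adjusted p = 0.00775) without wt number 2 and 1.16 (adjusted p = 1) without wt number 3. Among linker histones Hist1h1a gave 0.65 (0.15 to 1.16), which became 0.36 without wt number 3 and 0.38 without BMI1-KO number 3. Hist1h1b gave 0.57 (0.14 to 0.997) and 0.29 without wt number 3. Hist1h1c gave 0.56 (0.094 to 1.02), 0.21 without BMI1-KO number 3 and 0.84 without BMI1-KO number 1. Hist1h1e gave 0.19 (−0.43 to 0.81), with the sign turned without wt number 3 (−0.057) or BMI1-KO number 3 (−0.10). Medians were positive in each histone class, from 0.53 for H2B to 0.83 for H3. Many of these genes have near-identical copies, so counts of single genes are uncertain. The gene model counted as Hist1h2be (chr13:23583670-23621124) also overlaps that of Hist1h1e (chr13:23620629-23622558).

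The DNA replication and mitotic lists had 0 calls, but with 1.85% of all genes risen in BMI1-KO, lists this short would hold few. DNA replication genes gave 0 of 42 in each genotype by edgeR (2 in wt and 2 in BMI1-KO at an unadjusted p under 0.05), with a median genotype difference of 0.13, and mitotic genes 0 of 40 (1 and 10 at an unadjusted p under 0.05), with 0.15. The difference was above 0 for 28 of 42 and 29 of 40 genes. Of the 40 mitotic genes, 3 had an unadjusted interaction p under 0.05, beside 3.32% of all genes tested. All 3 were higher in BMI1-KO. The 3 differences of BMI1-KO lay above those of wt for 4 mitotic genes and below for 0, beside 3.73% and 4.71% of all genes. For replication genes this held for 1 and 2. Mki67, a marker of cycling cells, gave 0.12 in wt and 0.30 in BMI1-KO (difference 0.18, −0.13 to 0.48). Summed over the list, histone genes had 257, 574 and 3857 CPM in wt MΦs, 349, 722 and 3354 in wt MM-MΦs, 151, 369 and 514 in BMI1-KO MΦs and 159, 595 and 1081 in BMI1-KO MM-MΦs. The spread between numbers was far above that between cultures. The mitochondrial ribosomal RNAs, which share with histone RNAs the lack of a long poly(A) tail, were looked at after their values were seen and also had higher responses in BMI1-KO. The first, mt-Rnr1, gave 0.38 in wt and 1.18 in BMI1-KO (difference 0.80, unadjusted p = 0.00782), and mt-Rnr2 gave −0.53 and 0.25 (difference 0.78, unadjusted p = 0.00157). The difference of mt-Rnr1 was 0.33 without BMI1-KO number 3. That of mt-Rnr2 was 0.52 without wt number 2, where it stayed short of the threshold, and 1.17 without wt number 1, where it passed adjustment (adjusted p = 0.000228). Their part in the histone result was not tested.

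**Figure D4:**
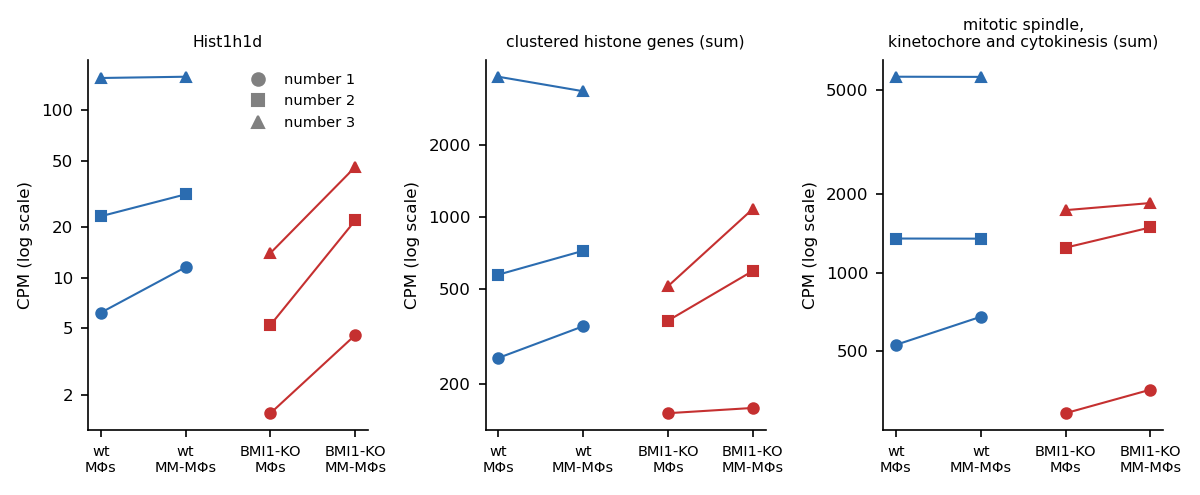
Levels in CPM on a log axis are given per library for Hist1h1d, for the sum of clustered histone genes and for the sum of mitotic genes, with lines joining MΦs and MM-MΦs of the same number, wt in blue and BMI1-KO in red. The sums are scaled without the TMM adjustment. The Hist1h1d lines climb in all 3 BMI1-KO numbers, less in wt numbers 1 and 2 and little in wt number 3, while mitotic gene levels differ mainly between numbers.

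Immunoglobulin genes, products of plasma and myeloma cells, were among the largest shared responses, with large point differences between genotypes. Igkc, the kappa light chain constant region, had 12, 157 and 31 counts in wt MΦs, 423, 1327 and 831 in wt MM-MΦs, 8, 11 and 25 in BMI1-KO MΦs and 357, 586 and 1218 in BMI1-KO MM-MΦs. In MM-MΦs the genotypes overlapped, while among MΦs wt number 2 held far more than the other 5 libraries. Its response was 3.95 (SE 0.23) in wt and 5.62 (SE 0.28) in BMI1-KO, and the genotype difference of 1.67 (0.80 to 2.54, unadjusted p = 0.000731) became 0.73 without the wt number 2 libraries. Ighg2b, a heavy chain gene, had 0, 113 and 19 counts in wt MΦs, 424, 1170 and 716 in wt MM-MΦs, 16, 0 and 9 in BMI1-KO MΦs and 385, 562 and 1180 in BMI1-KO MM-MΦs, and its difference of 1.93 became 0.39 without wt number 2. Igkv10-96, a kappa variable segment with 49 counts in the wt number 2 MΦ library and at most 3 in every other MΦ library, went from 3.36 to −0.77. Pou2af1, a transcriptional coactivator of B and plasma cells, had 0, 1 and 0 counts in wt MΦs, 7, 35 and 7 in wt MM-MΦs, 0, 0 and 0 in BMI1-KO MΦs and 11, 32 and 37 in BMI1-KO MM-MΦs. It was close to 0 in MΦs and present in all 6 MM-MΦ libraries, and no fold is given because BMI1-KO MΦs were at 0. Over the plasma and myeloma cell markers, 4 of 16 tested rose in wt and 7 in BMI1-KO, and the summed level was 694 to 994 CPM in wt MΦs, 881 to 1292 CPM in wt MM-MΦs, 816 to 882 CPM in BMI1-KO MΦs and 935 to 1045 CPM in BMI1-KO MM-MΦs. Edem1 alone, 1 of the listed markers, had 228 to 415 CPM over the 12 libraries, so the sum does not track myeloma RNA alone. Of the listed markers 3 were at 0 in all wt MΦ libraries and 8 in all BMI1-KO MΦ libraries, against 0 in wt MM-MΦs and 2 in BMI1-KO MM-MΦs. The plasma cell surface marker Sdc1 gave 0.016 in wt and 0.22 in BMI1-KO without a call. How far myeloma RNA in the sorted cells enters other responses was not tested.

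Among the remaining genes with the smallest interaction p, none passed the threshold. Rps19, a ribosomal protein gene, had differences of −0.34, −0.63 and −0.59 log2 CPM in wt and 0.55, 0.13 and 0.16 in BMI1-KO, opposite in sign in every number, and a genotype difference of 0.79 (adjusted p = 0.121, or 0.0257 with DESeq2). Its pseudogene Rps19-ps6 gave −1.25, the reverse direction, and with the counts of both added the per-number difference was 0.53 in place of 0.80. Rpl38 gave −1.17 and its copy Rpl38-ps2 0.70, and added together they gave 0.068. Reads may be split between such copies, so these values are uncertain. On the side of a lower response in BMI1-KO, Tnfaip2, a TNF-induced gene, had 665, 469 and 178 CPM in wt MΦs, 648, 509 and 225 in wt MM-MΦs, 631, 408 and 205 in BMI1-KO MΦs and 549, 284 and 145 in BMI1-KO MM-MΦs. Its difference was −0.038, 0.12 and 0.34 log2 CPM in wt and −0.20, −0.52 and −0.50 in BMI1-KO, without overlap, and the genotype difference was −0.54 (−0.80 to −0.28, adjusted p = 0.963). Mamdc2 gave −0.66, Tspoap1 −1.22, Zfp52 −0.92 and the ciliary gene Mks1 −1.11.

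**Figure D5:**
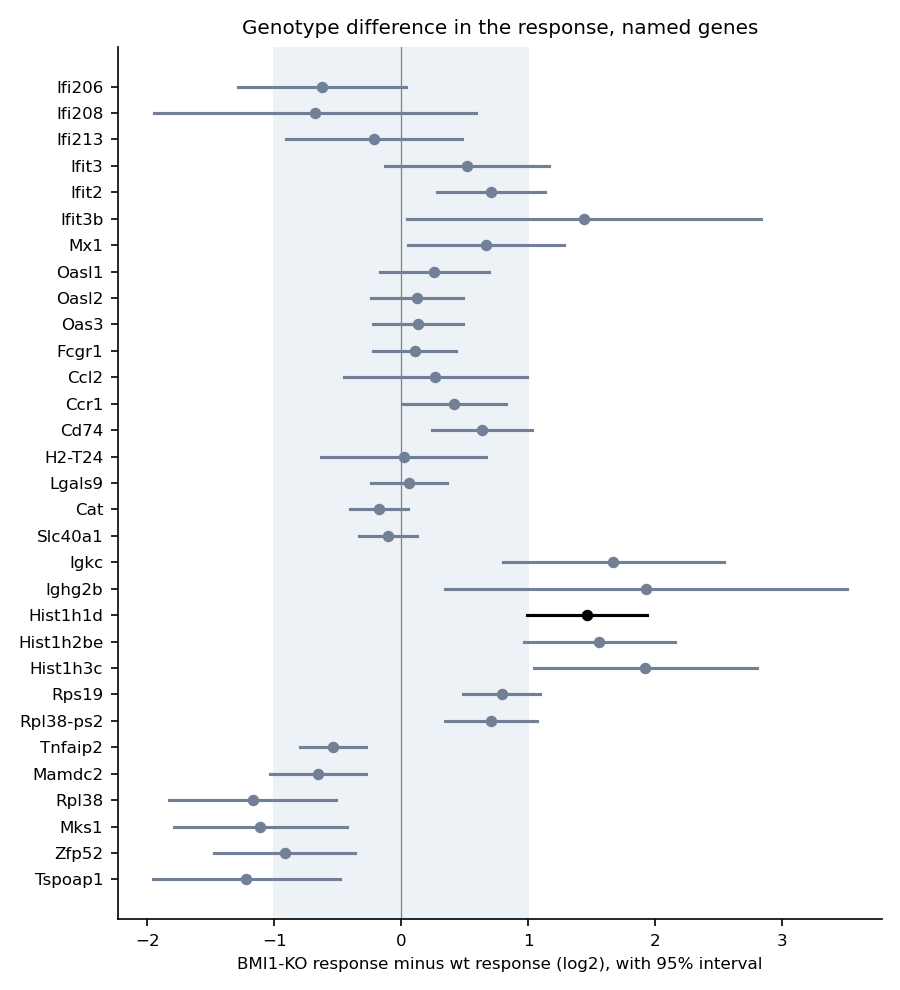
Points give the BMI1-KO response minus the wt response in log2 units with 95% intervals for 31 named genes, black where the interaction passed the threshold, and the shaded band spans 1 log2 unit on either side of 0. Oas3, Oasl2, Fcgr1, Lgals9, Cat and Slc40a1 lie inside the band with their whole intervals, and Hist1h1d is the 1 black point, at 1.46.

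Genes that the study follows by other assays gave no genotype difference in response past the threshold. Cdkn2a, the Polycomb target that encodes p16 and Arf, had 1, 0 and 7 counts in wt MΦs, 0, 0 and 1 in wt MM-MΦs, 133, 144 and 179 in BMI1-KO MΦs and 108, 159 and 230 in BMI1-KO MM-MΦs. The wt libraries held too few counts for a response, and in BMI1-KO the response was 0.10 (SE 0.21). Mrc1, which encodes CD206, a receptor used as an M2 marker, rose in BMI1-KO (0.40, SE 0.082, adjusted p = 0.00799) and had 0.22 (SE 0.082, adjusted p = 0.469) in wt, with levels of 837, 994 and 823 CPM in wt MΦs, 1036, 1010 and 1026 in wt MM-MΦs, 787, 479 and 359 in BMI1-KO MΦs and 954, 642 and 506 in BMI1-KO MM-MΦs. The difference between the responses was 0.18 (−0.06 to 0.42). Vegfa, an angiogenic factor, gave −0.12 and 0.10 (difference −0.17 to 0.62), and Lgals3, galectin-3, gave −0.025 and −0.091 (−0.34 to 0.21). Myc gave 0.036 and 0.091 (−0.31 to 0.42), and the Hedgehog transducer Smo gave −0.40 and −0.40 (−0.58 to 0.59). Mmp2 (0.545 to 2.40 CPM) and Cd163 (0.508 to 8.51 CPM) were low, with intervals over 1 log2 unit wide on each side of their estimates. Shh, Gli1 and Nos2 had 0 counts in every library and Gli2 had 3 counts in wt MΦ number 2 alone. Of the genes that encode the sort markers, Adgre1 gave 0.074 and 0.048 and Itgam 0.15 and 0.28, with 0 calls.

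The remaining lists gave a few calls each or none. Over all genes tested 1.06% rose in wt and 1.85% in BMI1-KO, and 0.0423% and 0.317% fell. Several of these short lists exceeded those shares, among them complement and macrophage identity genes in BMI1-KO. M2 markers and scavenger receptors had 2 rises of 22 in wt and 2 rises and 1 fall in BMI1-KO, and Toll-like and Fc gamma receptors had 1 of 18 in wt and 3 in BMI1-KO. Complement genes gave 1 of 18 and 4, angiogenic factors and matrix metalloproteinases 1 of 26 risen in wt against 1 risen and 1 fallen in BMI1-KO, and costimulatory ligands 1 of 15 risen in each with 1 fallen in BMI1-KO. Cell cycle inhibitors and p53 targets gave 1 of 23 and 2, the Hedgehog list 0 of 8 and 1, and unfolded protein response genes 0 of 22 and 2. Polycomb subunits (28 tested), hypoxia and glycolysis genes (26) and cholesterol genes (23) gave 0 calls in either genotype by edgeR, with 3, 4 and 3 genes at an unadjusted p under 0.05 in wt and 3, 4 and 5 in BMI1-KO. Macrophage identity genes gave 1 rise of 20 in wt and 4 in BMI1-KO. Markers of other cells gave 0 calls for B cells (3 tested), T and NK cells (2), neutrophils (9), mast cells (1), erythroid cells (3), fibroblasts (6) and endothelial cells (4), of which at most 2 markers a list had an unadjusted p under 0.05 in a genotype, and of 2 dendritic cell markers tested the interferon-induced gene Bst2 rose in both genotypes. Median genotype differences of the lists with at least 8 genes tested, other than histones, lay between −0.10 and 0.20.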

How the data were processed

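Per the methods and the submitters' processing notes, the authors demultiplexed reads from a total RNA-seq kit with bcl2fastq 2.17.1.14, trimmed them with cutadapt 1.9.1, aligned them to mm10 (GRCm38) with HISAT2 2.0.1 and counted them per gene with HTSeq 0.6.1. The sources used here name no annotation release and no strand setting. The deposited table holds raw counts per gene for 12 libraries, and the authors' FPKM files hold the same libraries scaled by exon length and total. The FPKM values served only to check totals.

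Counts were fitted with edgeR 4.0.16 (R 4.3.3): TMM scaling, a filter on genes with low counts (filterByExpr, minimum count 10), a block for the number within each genotype, a co-culture term per genotype, quasi-likelihood tests and Benjamini-Hochberg adjustment over all genes tested at 0.05. The interaction is the BMI1-KO term minus the wt term, with positive values for the higher response in BMI1-KO. All adjusted and unadjusted p-values come from this fit across all genes unless DESeq2 1.42.0 or limma 3.58.1 is named. Per-number differences are log2 CPM with a prior count of 2. As a check of the pairing, deviations from the group means were correlated between both cultures of a number. The values were 0.55, 0.36 and 0.73 for wt numbers 1 to 3 and 0.64, 0.18 and 0.60 for BMI1-KO. Between genotypes, MΦ and MM-MΦ libraries of the same number gave 0.48 and 0.50 for number 1, −0.03 and 0.03 for number 2, and 0.50 and 0.51 for number 3. Numbers 1 and 3 thus also went together across genotypes, which the block within each genotype did not use. Scripts were tested on simulated data.

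Named genes were those with the smallest interaction p in each direction and the largest and smallest shared responses at a group mean of at least 5 CPM, up to 3 of each list by interaction p and by response, and genes the study names. Members and lists were chosen with earlier results of these data known, and Egr1, Irf7, Irf9, Srxn1, Pou2af1, Sdc1, Rps19-ps6, mt-Rnr1, mt-Rnr2, 4 linker histone genes beside Hist1h1d and the histone list were added after their values were seen. Each total of 9662279 to 11142768 counts limits what low genes can show. Alternatives were no block, other tools, scalings and filters, a minimum fold change, and leaving out each number.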

Additional observations from a re-analysis of the deposited data

Results flagged for a closer look

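Hist1h1d was the 1 gene whose response differed between genotypes by a test of the difference itself, with a log2 difference of 1.46 (BMI1-KO minus wt).

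For 7 further named genes every number of one genotype moved one way and every number of the other the opposite way. How many of all genes tested show this pattern was not counted. Genes were named in part for a small interaction p, which favours such patterns. The log2 difference was 0.79 for Rps19, a ribosomal protein gene, −1.17 for Rpl38 and 0.70 for its copy Rpl38-ps2, whose reads may be split. It was −1.11 for Mks1, a ciliary gene, and −0.92 for Zfp52, a zinc finger gene. It was −0.35 for Trp53inp1, a p53 target, and −0.26 for Cd63, a tetraspanin of late endosomes. These opposite signs were not tested beyond the interaction across all genes, which none of the 7 passed.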

How the results depend on the processing

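The interaction count of 1 stayed at 1 with limma-voom, median-of-ratios scaling, upper quartile scaling, library totals and a filter of 1 CPM. It was 3 with DESeq2 and the same block, 0 with limma on the 6 per-number differences, 23 with no filter on low counts, and 0 with a minimum log2 fold change of 1. With no replicate block it was 0 (129 genes at an unadjusted p under 0.05) and the count called in both genotypes was 12 in place of 136. That count was 0 with limma on the differences, 206 with no filter and 20 with the minimum fold change, and lay within 1.5 times of 136 under the other settings. Leaving out 1 number gave 0 to 2 genes for the interaction and 88 to 141 in both genotypes, 88 without wt number 3, without number 1 or without number 3. The median genotype difference over the 136 genes was 0.027 to 0.23 when a number was left out. Hist1h1d passed in 11 of 19 alternatives and not in the other 8. Calls gained by other named genes were Rps19 and Hist1h2be with DESeq2, mt-Rnr2 without wt number 1 and without number 1 of both genotypes, Hist1h3c without wt number 2, and 14 named genes with no filter on low counts. The cause was not tested, except that leaving out libraries leaves fewer samples and a minimum fold change asks for more. With 3 numbers a genotype, the median SE of a genotype difference was 0.242 log2 units over all genes tested and 0.178 over the 136. Both medians leave out genes with a group at 0, of which the 136 held 5.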
